A study of Homo sapiens with 40 samples.

Results

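HEK293T cells carrying a DELE1 transgene labelled dMTS-DELE1 were compared after antimycin A and after vehicle, with 4 RNA-seq libraries on each side and 8 of the study's 40 libraries in all. Members were taken by the library names in the labels: the antimycin libraries of the line labelled sgSLC25A12 SLC25A12-F137S dMTS-DELE1 and the libraries of the same line labelled normal. Antimycin A, which blocks electron flow through respiratory complex III, was given at 40 nM for 6 hours, and the labels' protocol names vehicle as the alternative. HEK293T is an established human embryonic kidney line. In this line the SLC25A12 gene, which encodes a mitochondrial aspartate and glutamate carrier, was knocked out, and the cells carry the SLC25A12-F137S variant together with dMTS-DELE1. In work on DELE1 the prefix dMTS denotes a form without the mitochondrial targeting sequence. Libraries of 2 other lines served for comparison, each again with 4 vehicle and 4 antimycin libraries: the F137S line, which has the same knockout and SLC25A12-F137S without the DELE1 transgene, and the WT-vector line, labelled wild type with a vector. The labels number the libraries as biological replicates without naming separate cultures, so p-values measure the spread between these samples, which may be technical. In such bulk samples, fewer cells of a type and less RNA per cell cannot be told apart.

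DELE1 relays mitochondrial stress to the cytosol. When mitochondria are impaired, DELE1 collects in the cytosol, often after cleavage by the inner membrane protease OMA1, and activates the kinase HRI (gene EIF2AK1). HRI phosphorylates eIF2alpha, general translation falls, and translation of ATF4 rises. ATF4 then drives a programme known as the integrated stress response (ISR), with transcription factors such as DDIT3 and ATF3, feedback regulators such as TRIB3 and PPP1R15A, and genes of amino acid supply. Inhibition of the respiratory chain is a common trigger of this relay.

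Many ATF4 target genes carry a C/EBP-ATF response element, where ATF4 binds as a dimer with a C/EBP factor. The 250 bases before the RefSeq start of each gene (GRCh38.p14) were searched on both strands for its core, written TGATGNAA, and for the cAMP response element TGACGTCA, and the 2 motifs do not overlap in the stretches shown. The core was present in 3 of 28 ISR genes with a sequence (ATF3, CHAC1 and FGF21), against 3.19% of 27305 promoters and 1.47% of the 12411 promoters of tested genes. The cAMP response element was present in 1 of the 28 (PPP1R15A), against 2.72% of promoters of tested genes. Stretches of 30 bases around a match are shown for 3 ISR genes that rose with antimycin, ATF3, CHAC1 and PPP1R15A, and for ASNS, the asparagine synthetase gene, which rose too. FGF21 had a change that did not pass the test, and its stretch is not shown. Each is written 5′ to 3′ on the gene's strand, with the match in capitals. In CHAC1 the match reads on the opposite strand. A match is a description of the letters and not a shown binding site.
ATF3, chr1:212565205-212565234, plus strand: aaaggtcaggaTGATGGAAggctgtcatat
CHAC1, chr15:40953251-40953280, plus strand: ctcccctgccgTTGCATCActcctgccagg
ASNS, chr7:97872458-97872487, minus strand: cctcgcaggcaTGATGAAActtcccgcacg
PPP1R15A, chr19:48872352-48872381, plus strand: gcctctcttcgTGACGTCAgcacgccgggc

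All libraries were of similar depth, with totals of 30.7 M to 32 M counts over the 40 and 31.3 M to 31.5 M over the 8 dMTS-DELE1 libraries. Levels are given as CPM, gene counts scaled to a common library total, and changes as log2 fold changes with standard errors from edgeR's quasi-likelihood fit over 16739 tested genes, where a gene was called at an adjusted p under 0.05 (Benjamini-Hochberg). CPM is not divided by gene length, so levels are compared between groups and not between genes. The kidney epithelium marker UMOD had no count in any of the 8 libraries, and the 11 markers of that list summed to 5.58 to 7.11 CPM. All 11 markers of kidney progenitor and neural cells that HEK293 cells are known to express had counts. They summed to 806 to 845 CPM in vehicle and 863 to 891 CPM in antimycin, with 3 higher and 3 lower. Of all tested genes 17.6% were higher and 17.3% lower. Markers of fibroblast and endothelial cells summed to 15.4 to 19.6 CPM, and those of blood cells to 5.47 to 6.87 CPM. The part of these shifts in the results was not tested.

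The transgene transcripts were present in every library of the line. DELE1 was at 5270, 5460, 5340 and 5300 CPM in vehicle and at 6050, 6060, 6080 and 6170 CPM in antimycin. SLC25A12 was at 3690, 3740, 3730 and 3690 CPM in vehicle and at 4230, 4360, 4260 and 4240 CPM in antimycin. Neither gene's groups overlapped, and both transcripts were far above their level in WT-vector cells, which had a mean of 49.6 CPM of DELE1 and 38.7 CPM of SLC25A12 in vehicle. SLC25A12 was also above its level in F137S cells, by a log2 difference of 1.00 in vehicle and 1.16 in antimycin. The 2 lines thus differed in SLC25A12 as well as in DELE1. The part of SLC25A12 in the differences of response was not tested. The counts do not separate transgene from native transcripts. DELE1 rose by 0.19 ± 0.026 in dMTS-DELE1 cells (adjusted p = 2.6e-07, edgeR), and its log2 fold change was 0.15 in F137S and 0.18 in WT-vector cells. In dMTS-DELE1 cells DELE1 gained 743 ± 50.8 CPM (SE), more than its whole mean level in WT-vector cells. By their labels the other 2 lines carry no DELE1 transgene, so these log2 fold changes are not of like transcripts. SLC25A12 rose by 0.20 ± 0.019 (adjusted p = 1.4e-14, edgeR), which was 0.16 ± 0.026 more than its log2 fold change of 0.042 in F137S cells (adjusted p = 6.4e-06 for the difference, edgeR). In WT-vector cells, whose label names no SLC25A12 transgene, the change of SLC25A12 was -8.07 ± 1.23 CPM.

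Antimycin changed 5847 of 16739 genes in dMTS-DELE1 cells, 34.9% of those tested. Of these, 2945 rose (17.6%) and 2902 fell (17.3%), and 171 (1.02%) changed at least 2-fold. In F137S cells the same comparison called 8574 genes (51.2%), with 2.8% at least 2-fold, and in WT-vector cells 8680 (51.9%), with 3.55% at least 2-fold. The dMTS-DELE1 and F137S responses share no libraries, and across the 12752 genes with a mean log2 CPM of at least 1 their log2 fold changes had a Pearson correlation of 0.772, a description in which genes are not independent replicates. Both lines called 4776 genes in the same direction, which is 81.7% of the dMTS-DELE1 calls and 55.7% of the F137S calls, and 62 in opposite directions. The responses themselves differed in 1998 genes (11.9%): 1379 were more positive in dMTS-DELE1 cells (8.24%) and 619 more negative (3.7%).

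Genes were also grouped by their call in WT-vector cells, keeping those with a mean log2 CPM of at least 1 over all 40 libraries. These calls contrast WT-vector libraries alone, while the level limit and the spread of the fit come from all libraries. Of the 71 genes above that level that rose at least 2-fold in WT-vector cells, 58 also rose in dMTS-DELE1 cells. Their median log2 fold change was 1.20 in WT-vector, 0.97 in F137S and 0.59 in dMTS-DELE1 cells. For 29 of the 71 the response was less positive in dMTS-DELE1 than in F137S cells by the test of the difference, and for 0 it was more positive. Of the 62 above that level that fell at least 2-fold in WT-vector cells, 57 also fell in dMTS-DELE1 cells, with medians of -1.19, -1.02 and -0.69 in the same order of lines. The response was less negative in dMTS-DELE1 than in F137S cells for 23 of these and more negative for 0. The WT-vector medians come from the values used to choose the genes, so only the F137S and dMTS-DELE1 medians can be compared. With the level limit and no fold limit, 2152 of 3791 genes that rose in WT-vector cells rose in dMTS-DELE1 cells, with 474 less and 37 more positive than in F137S cells. Of 3980 that fell in WT-vector cells 2332 fell, with 1174 less and 20 more negative than in F137S cells.

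**Figure D1:**
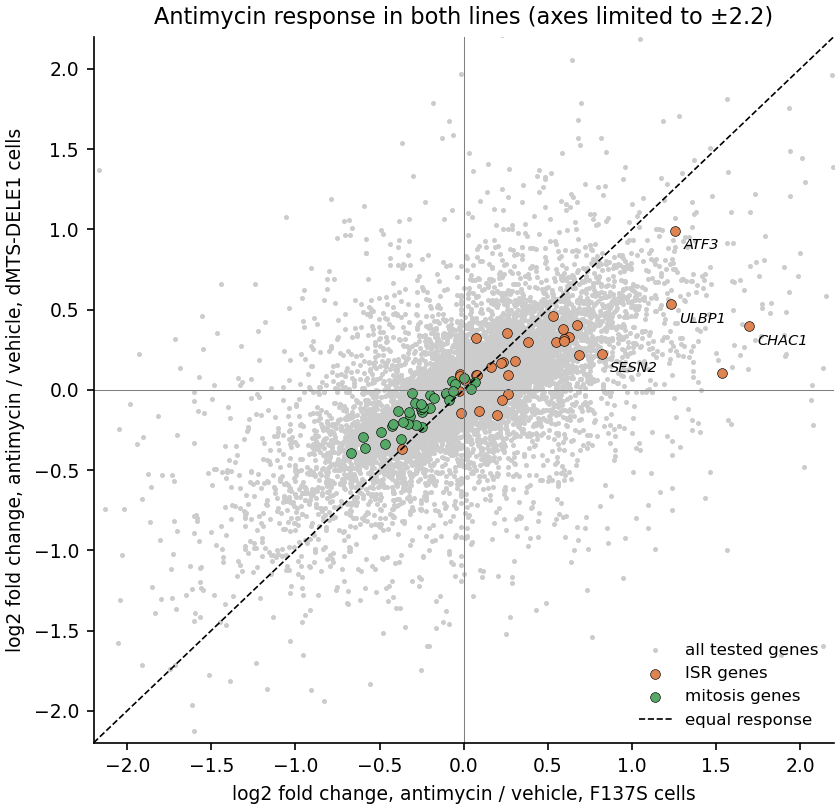
Each point is 1 of the 16739 tested genes, with its log2 fold change (antimycin over vehicle) in F137S cells on the x axis and in dMTS-DELE1 cells on the y axis, both limited to ±2.2; ISR genes are orange, mitosis genes green, and the dashed line marks equal responses. CHAC1, SESN2, ULBP1 and ATF3 lie to the right of zero and below the line, and most mitosis genes lie below zero on both axes and above the line.

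ISR genes rose with antimycin in dMTS-DELE1 cells, by less on the log2 scale than in the other 2 lines. Of 33 tested ISR genes 22 rose and 2 fell (ATF5 and STC2), and their median log2 fold change was 0.17, against 0.013 for all tested genes. In 22 of the 33, each antimycin library was above each vehicle library, against 14.3% of all tested genes. The same list had a median of 0.26 in F137S cells, with 23 higher and 1 lower, and of 0.70 in WT-vector cells, with 28 higher and 2 lower. Of all tested genes 26.3% were higher and 24.9% lower in F137S cells, and 25.5% and 26.4% in WT-vector cells. In the test of the difference against F137S cells, 12 ISR genes were more negative in dMTS-DELE1 cells, against 3.7% of all genes, and 3 were more positive (XPOT, WARS1 and PMAIP1). Against WT-vector cells 23 were more negative, against 5.69% of all genes, and 0 were more positive. The differences were called and at least 2-fold in 0.215% of genes against F137S and 0.609% against WT-vector cells, and in any direction in 16.2% against WT-vector cells.

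Among the ISR transcription factors, ATF3 responded most. ATF3 was at 82.1, 79.6, 87.4 and 86.5 CPM in vehicle and at 169, 165, 167 and 166 CPM in antimycin. The groups did not overlap and each antimycin library stood well above the highest vehicle library. Its log2 fold change of 0.99 ± 0.037 (adjusted p = 1.2e-36, edgeR) was 0.27 below the 1.26 ± 0.042 of F137S cells (adjusted p = 0.00031 for the difference, edgeR). DDIT3, the proapoptotic factor also called CHOP, was at 43.3, 45.0, 42.3 and 46.6 CPM in vehicle and at 58.9, 60.5, 53.1 and 62.1 CPM in antimycin, again without overlap. DDIT3 rose by 0.40 ± 0.058 (adjusted p = 2.5e-08, edgeR), against 0.67 ± 0.065 in F137S cells. The difference of -0.27 had an adjusted p of 0.031 (edgeR) and was not called when any of 4 single libraries was left out, with a highest adjusted p of 0.085. ATF4 itself, which is controlled mainly at translation, was at 686, 695, 661 and 690 CPM in vehicle and at 743, 742, 707 and 722 CPM in antimycin. ATF4 mRNA rose by 0.092 ± 0.017 (adjusted p = 1e-05, edgeR). Its difference from F137S cells, 0.018 ± 0.025, did not pass the test (adjusted p = 0.73, edgeR). In WT-vector cells ATF4 mRNA rose by 0.348, and the difference of -0.255 ± 0.0245 was called (adjusted p = 1.8e-13, edgeR). CEBPB, a C/EBP partner of ATF4, rose by 0.33 ± 0.066 (adjusted p = 3.6e-05, edgeR). ATF5, a related factor of the mitochondrial stress response, fell by 0.37 ± 0.053 (adjusted p = 2.5e-08, edgeR), and its log2 fold change was -0.37 in each of the other 2 lines. NUPR1, a stress-induced chromatin regulator, had a log2 fold change of 0.21 ± 0.12 that did not pass the test (adjusted p = 0.16, edgeR), against 0.69 in F137S and 1.96 in WT-vector cells.

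CHAC1, which degrades glutathione, differed strongly in its response between dMTS-DELE1 and F137S cells. It was at 18.5, 19.4, 17.6 and 17.7 CPM in vehicle and at 25.8, 22.5, 23.4 and 24.4 CPM in antimycin, without overlap. CHAC1 rose by 0.40 ± 0.097 (adjusted p = 0.00078, edgeR), against 1.70 ± 0.12 in F137S cells, where means went from 2.97 to 9.63 CPM, and 3.17 in WT-vector cells, where they went from 1.90 to 17.1 CPM. The difference against F137S cells was -1.30 ± 0.15 (adjusted p = 5.4e-09, edgeR), and vehicle-treated dMTS-DELE1 cells already had more CHAC1 than antimycin-treated WT-vector cells on average. SESN2, a repressor of mTORC1 signalling, was at 267, 279, 243 and 269 CPM in vehicle and at 325, 305, 300 and 307 CPM in antimycin, without overlap. SESN2 rose by 0.23 ± 0.030 (adjusted p = 1.2e-08, edgeR), against 0.82 ± 0.032 in F137S cells, a difference of -0.60 ± 0.044 (adjusted p = 5.3e-15, edgeR). ULBP1, a ligand of the natural killer cell receptor NKG2D, rose by 0.53 ± 0.094 (adjusted p = 3.1e-06, edgeR), 0.70 less than in F137S cells (adjusted p = 0.00017 for the difference, edgeR).

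GDF15, a secreted stress hormone, was at 9.33, 10.5, 10.7 and 11.5 CPM in vehicle and at 11.4, 11.7, 10.1 and 12 CPM in antimycin. The groups overlapped and the log2 fold change of 0.10 ± 0.17 did not pass the test (adjusted p = 0.68, edgeR). In F137S cells GDF15 went from a mean of 0.205 to 0.604 CPM, and the difference of response was -1.43 ± 0.41 (adjusted p = 0.013, edgeR). Without the third F137S antimycin library that difference was -1.17 with an adjusted p of 0.061. VLDLR, a lipoprotein receptor, had a log2 fold change of -0.029 ± 0.085 (adjusted p = 0.83, edgeR). FGF21, another secreted stress hormone, had means of 1.24 and 1.19 CPM and an adjusted p of 0.92 (edgeR).

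The feedback regulators PPP1R15A and TRIB3 rose in dMTS-DELE1 cells by a log2 fold change that did not pass the test of a difference from F137S cells. PPP1R15A, the stress-induced subunit of the eIF2alpha phosphatase, was at 108, 115, 104 and 109 CPM in vehicle and at 157, 148, 147 and 148 CPM in antimycin. TRIB3, a pseudokinase that inhibits ATF4 activity, was at 114, 116, 116 and 117 CPM in vehicle and at 135, 136, 128 and 122 CPM in antimycin. Neither gene's groups overlapped. PPP1R15A rose by 0.46 ± 0.041 (adjusted p = 8.3e-16, edgeR) with a difference from F137S cells of -0.073 ± 0.062, and TRIB3 rose by 0.17 ± 0.042 (adjusted p = 0.00069, edgeR) with a difference of -0.063 ± 0.065. DDIT4, an inhibitor of mTORC1, rose by 0.38 ± 0.037 (adjusted p = 1.9e-13, edgeR), 0.21 less than in F137S cells (adjusted p = 0.0039 for the difference, edgeR). VEGFA, an angiogenic factor, rose by 0.30 ± 0.040, 0.25 less than in F137S cells (adjusted p = 0.0012 for the difference, edgeR). STC2, a secreted glycoprotein, fell by 0.14 ± 0.026, and XPOT, the tRNA exporter, rose by 0.097 ± 0.019 with a log2 fold change of -0.023 in F137S cells. PMAIP1, the proapoptotic protein NOXA, rose by 0.32 ± 0.028 (adjusted p = 3.7e-16, edgeR), 0.25 more than in F137S cells (adjusted p = 2.6e-06 for the difference, edgeR). The WARS1 difference, 0.10 ± 0.032, was not called when any of 12 single libraries was left out, for example 0.088 with an adjusted p of 0.077 without the second F137S vehicle library.

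**Figure D2:**
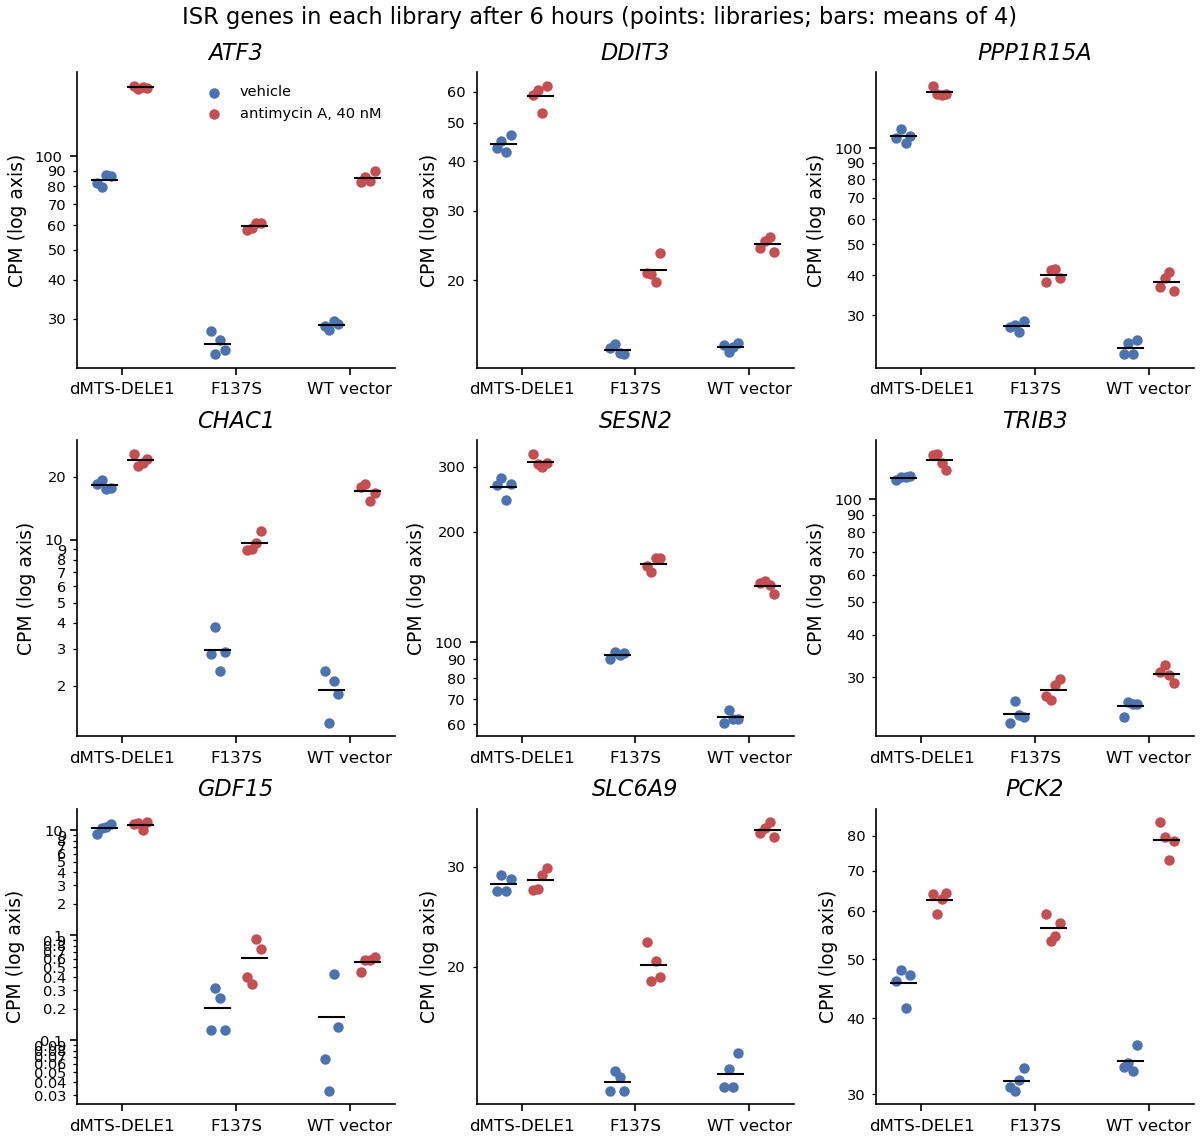
CPM on a log axis for 9 genes; each point is 1 library, blue for vehicle and red for 40 nM antimycin A, the bars are means of 4, and the 3 lines are on the x axis. In dMTS-DELE1 cells ATF3 separates clearly between treatments, while GDF15 and SLC6A9 overlap, and the vehicle libraries of this line lie above those of the other 2 lines for all 9 genes.

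The level from which the response started differed. In vehicle, 31 of 33 ISR genes were higher and 1 lower in dMTS-DELE1 than in F137S cells, with a median log2 difference of 1.05, where 17.7% of all tested genes were higher and 24.1% lower (41.8% in all, 2.25% at least 2-fold). In antimycin the 2 lines differed in 54.3% of genes, 2.95% at least 2-fold, with 25.5% higher and 28.8% lower in dMTS-DELE1 cells. This vehicle comparison shares its 8 libraries with the difference of response. For CHAC1 the vehicle difference was 2.62 and the difference of response -1.30, for SESN2 1.51 and -0.60, for GDF15 5.65 and -1.43, for TRIB3 2.30 and -0.063, and for PPP1R15A 1.98 and -0.073. For 21 of the 33 ISR genes each vehicle library of dMTS-DELE1 cells was above each antimycin library of WT-vector cells, against 29.9% of all tested genes. These included DDIT3, GDF15, NUPR1, PPP1R15A, SESN2, TRIB3 and VLDLR.

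Because of these starting levels, the change in CPM was also set beside the log2 fold change, a comparison added after the values were seen. Of the 28 ISR genes that rose in WT-vector cells, 22 had a smaller log2 fold change in dMTS-DELE1 than in F137S cells. On the CPM scale 10 of the 28 had a smaller and 18 a larger change, and beyond 2 standard errors 4 were smaller and 12 larger. ATF3 gained 83.0 ± 2.0 CPM (SE) in dMTS-DELE1 and 34.7 ± 1.3 CPM in F137S cells, and PPP1R15A gained 40.9 ± 3.4 and 12.4 ± 0.96 CPM. DDIT3 gained 14.3 ± 2.2 and 7.91 ± 0.80 CPM. So the order of the 2 lines for ATF3 and DDIT3 reversed with the scale. For CHAC1 the gains were 5.78 ± 0.81 and 6.67 ± 0.58 CPM, which lie within 2 standard errors of each other. SESN2 gained 44.8 ± 9.4 CPM in dMTS-DELE1 and 71.2 ± 3.7 CPM in F137S cells, the smaller on both scales.

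**Figure D3:**
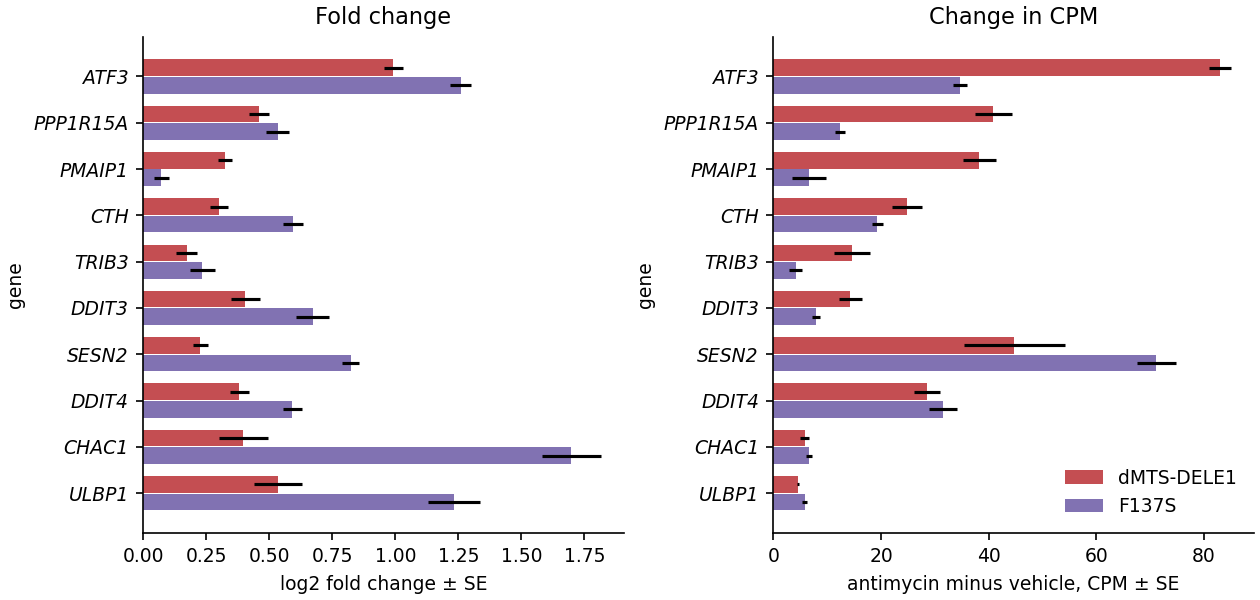
Antimycin response of 10 ISR genes, chosen after their values were seen, as log2 fold change with its SE (left) and as the difference of mean CPM with its SE (right), in dMTS-DELE1 (red) and F137S cells (purple). ATF3, DDIT3, TRIB3, PPP1R15A and CTH have the shorter red bar on the left and the longer red bar on the right. PMAIP1 is longer in red on both, and SESN2 and ULBP1 are shorter in red on both.

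Genes of amino acid supply responded in part. The counts of this and the other lists stand against 17.6% of all tested genes higher and 17.3% lower, and a count near these shares says nothing particular to a list. Of 21 tested amino acid transporters 11 rose and 1 fell, with a median of 0.049 against 0.13 in F137S and 0.20 in WT-vector cells. SLC6A9, the glycine transporter GLYT1, was at 27.2, 29, 27.2 and 28.6 CPM in vehicle and at 27.3, 27.4, 29 and 29.9 CPM in antimycin. These groups overlapped, and the log2 fold change of 0.020 ± 0.056 did not pass the test (adjusted p = 0.82, edgeR), while SLC6A9 rose by 0.69 ± 0.060 in F137S cells and the difference was -0.67 ± 0.082 (adjusted p = 3.6e-09, edgeR). The fall was in SLC7A11, the cystine importer, at -0.20 ± 0.032 (adjusted p = 1.7e-07, edgeR), against -0.50 ± 0.034 in F137S cells. The neutral amino acid transporters SLC38A3, SLC43A1 and SLC1A4 rose by 0.44 ± 0.096, 0.34 ± 0.053 and 0.30 ± 0.044, and none of these 3 passed the test of a difference from F137S cells.

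Among 29 enzymes of serine, one-carbon, asparagine and proline synthesis 11 rose and 8 fell, with a median of 0.014. PCK2, the mitochondrial phosphoenolpyruvate carboxykinase, was at 46.0, 48.0, 41.6 and 47.2 CPM in vehicle and at 64.0, 59.5, 62.9 and 64.3 CPM in antimycin, without overlap. PCK2 rose by 0.46 ± 0.045 (adjusted p = 1.2e-13, edgeR), 0.38 less than in F137S cells (adjusted p = 9.4e-06 for the difference, edgeR). ASNS rose by 0.79 ± 0.14 (adjusted p = 2.9e-06, edgeR) from a mean of 2.49 CPM. Its difference of -0.46 ± 0.20 did not pass the test (adjusted p = 0.14, edgeR). In GENCODE v29 ASNS overlaps AC079781.5 on the same strand and AC005326.1 on the other. Its reads may therefore not all be counted, which was not tested. PSAT1, which makes phosphoserine, rose by 0.077 ± 0.018, 0.12 less than in F137S cells. CTH, the cystathionine gamma-lyase gene of the ISR effector list, rose by 0.30 ± 0.036, 0.29 less than in F137S cells. GPT2, the mitochondrial alanine transaminase, had a log2 fold change of 0.014 ± 0.033 (adjusted p = 0.79, edgeR), 0.21 below that of F137S cells (adjusted p = 0.00088 for the difference, edgeR). Of 20 cytosolic tRNA synthetases 6 rose and 3 fell, where 17.6% and 17.3% of all tested genes did, with AARS1 highest at 0.26 ± 0.021. Of 17 mitochondrial tRNA synthetases 0 rose and 5 fell, among them FARS2 at -0.42 ± 0.078 and LARS2 at -0.17 ± 0.024.

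Of 30 tested genes of the stress relay and eIF2 control 9 rose and 2 fell, where 17.6% and 17.3% of all tested genes did. Their median log2 fold change was 0.030, and 0 were called at 2-fold or more. PPP1R15A had the highest value of this list, 0.46, and DELE1 is also a member, both given above. EIF2AK1, the gene of HRI, rose by 0.088 ± 0.022 (adjusted p = 0.00089, edgeR). EIF2AK3 and EIF2AK4, the genes of the other eIF2alpha kinases PERK and GCN2, had log2 fold changes of 0.10 ± 0.052 and 0.035 ± 0.031 that did not pass the test. OMA1 had 0.063 ± 0.045 (adjusted p = 0.29, edgeR), and OPA1, an OMA1 substrate that shapes the inner membrane, fell by 0.14 ± 0.026. SLC25A13, the other aspartate and glutamate carrier, fell by 0.15 ± 0.028, against -0.24 in F137S cells.

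Mitosis genes fell in dMTS-DELE1 cells and fell less than in F137S cells. Of 35 tested 24 fell and 0 rose, with a median of -0.12, against -0.25 in F137S cells (30 lower) and -0.32 in WT-vector cells (30 lower). The test of the difference called 21 of the 35 more positive than in F137S cells, against 8.24% of all genes, and 0 more negative. KIF23, a kinesin of cell division, was at 163, 160, 167 and 163 CPM in vehicle and at 128, 123, 125 and 121 CPM in antimycin. AURKA, a spindle kinase, was at 110, 105, 110 and 107 CPM in vehicle and at 84.5, 82.6, 83.5 and 85.5 CPM in antimycin. In both genes each antimycin library was below each vehicle library. KIF23 fell by 0.39 ± 0.028 (adjusted p = 6.8e-20, edgeR), against -0.67 ± 0.029 in F137S cells, and AURKA fell by 0.36 ± 0.030 (adjusted p = 9e-17, edgeR), against -0.59 ± 0.030. The differences were 0.28 ± 0.040 and 0.23 ± 0.043. CCNB1, the mitotic cyclin B1, fell by 0.34 ± 0.023, and CENPA, the centromeric histone, by 0.29 ± 0.047. TTK, a spindle checkpoint kinase, had a log2 fold change of -0.022 ± 0.037 (adjusted p = 0.69, edgeR), against -0.31 ± 0.037 in F137S cells. Unlike the ISR genes, all 30 mitosis genes that fell in WT-vector cells had a smaller fall in dMTS-DELE1 than in F137S cells on the log2 and on the CPM scale alike, beyond 2 standard errors of CPM in 27. In vehicle, 28 of the 35 mitosis genes were lower and 2 higher in dMTS-DELE1 than in F137S cells, with a median log2 difference of -0.11, beside a median difference of response of 0.13. In antimycin 7 were lower and 12 higher, with a median of 0.046. Of all tested genes 24.1% were lower and 17.7% higher in vehicle, and 28.8% and 25.5% in antimycin. These comparisons share their libraries with the difference of response. For KIF23 and AURKA the vehicle differences were -0.075 and -0.18.

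**Figure D4:**
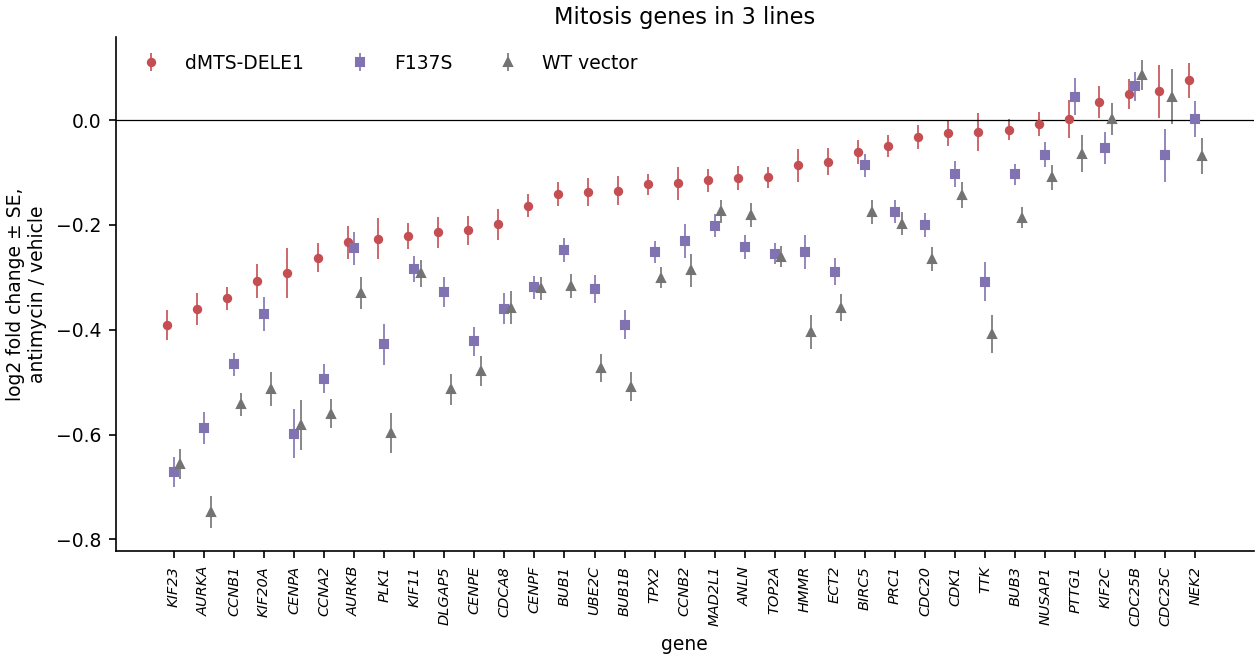
Log2 fold change (antimycin over vehicle) with its SE for the 35 tested mitosis genes, ordered by the dMTS-DELE1 value, in dMTS-DELE1 (red circles), F137S (purple squares) and WT-vector cells (grey triangles). From KIF23 to TTK the red points lie nearer zero than the squares for nearly every gene.

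Genes of DNA replication and the G1 to S transition moved both ways, with 10 of 38 higher and 11 lower. E2F1, a transcription factor of S phase entry, rose by 0.40 ± 0.036 (adjusted p = 5.2e-14, edgeR), and RFC3, a clamp loader subunit, fell by 0.39 ± 0.026 (adjusted p = 9.5e-22, edgeR). Of 24 p53 target genes 16 rose and 0 fell, with a median of 0.13. In F137S cells 16 rose and 2 fell, with a median of 0.17. In WT-vector cells 15 rose and 2 fell, with a median of 0.23. Of all tested genes 26.3% were higher and 24.9% lower in F137S cells, and 25.5% and 26.4% in WT-vector cells. The p53 list shares members with the ISR list, among them SESN2, PMAIP1 and TNFRSF10B, and the activity of p53 was not tested. Among the 24, GADD45A, a growth arrest gene, rose by 0.55 ± 0.046 in dMTS-DELE1 cells. BTG2, an antiproliferative gene, rose by 0.55 ± 0.053 and PLK2, a stress-induced kinase, by 0.73 ± 0.11. None of these 3 passed the test of a difference from F137S cells.

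Immediate early genes had one of the highest list medians, 0.27, with 18 of 32 higher and 2 lower, against medians of 0.33 in F137S and 0.36 in WT-vector cells. JUN, an AP-1 subunit, was at 181, 193, 191 and 208 CPM in vehicle and at 354, 346, 337 and 362 CPM in antimycin, without overlap. JUN rose by 0.85 ± 0.031 (adjusted p = 2.5e-23, edgeR). SERTAD1, a cell cycle regulator, rose by 0.88 ± 0.089 (adjusted p = 3e-13, edgeR). MYC, the growth-promoting transcription factor, went the other way, from 89.0, 90.6, 85.3 and 92.2 CPM in vehicle to 67.1, 62.8, 59.0 and 62.0 CPM in antimycin. MYC fell by 0.51 ± 0.040 (adjusted p = 1.5e-14, edgeR), 0.48 less than in F137S cells (adjusted p = 3.4e-08 for the difference, edgeR). MXD1, which competes with MYC for its partner MAX, rose by 0.43 ± 0.059 (adjusted p = 7.4e-09, edgeR).

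Endoplasmic reticulum (ER) stress genes rose in this line where they mostly did not in WT-vector cells. Of 28 tested 19 rose and 0 fell, with a median of 0.12, against 12 higher and 5 lower in F137S and 5 higher and 14 lower in WT-vector cells. Of all tested genes 26.3% were higher and 24.9% lower in F137S cells, and 25.5% and 26.4% in WT-vector cells. The difference was called more positive for 17 of the 28 against WT-vector cells, where 10.5% of all genes were. Against F137S cells it was more positive for 8 and more negative for 2, where 8.24% and 3.7% of all genes were. In vehicle, 13 of the 28 were already higher and 7 lower than in F137S cells, where 17.7% and 24.1% of all genes were. This vehicle comparison shares its libraries with the difference of response. DNAJB9, an ER chaperone of the unfolded protein response, was at 33.5, 31.1, 36.6 and 35.5 CPM in vehicle and at 42.8, 44.4, 42.7 and 42.4 CPM in antimycin, without overlap. DNAJB9 rose by 0.33 ± 0.049 (adjusted p = 3.6e-08, edgeR), whereas it fell by 0.25 ± 0.052 in F137S cells, and the difference was 0.58 ± 0.071 (adjusted p = 3e-09, edgeR). HERPUD1, of ER-associated degradation, rose by 0.33 ± 0.029, 0.16 more than in F137S cells (adjusted p = 0.0045 for the difference, edgeR). The ER chaperone HSPA5 rose by 0.17 ± 0.022, the secreted ER stress protein MANF by 0.27 ± 0.039 and the oxidoreductase ERO1B by 0.35 ± 0.041, and none of these 3 passed the test of a difference from F137S cells.

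Cytosolic heat shock chaperones mostly fell, with 3 of 23 higher, 13 lower and a median of -0.11. HSPA1A, the inducible HSP70, was at 17.1, 22.1, 22.1 and 18.2 CPM in vehicle and at 10.5, 10.5, 12.4 and 9.98 CPM in antimycin, without overlap. HSPA1A fell by 0.87 ± 0.10 (adjusted p = 9.1e-09, edgeR) and its near-identical copy HSPA1B by 0.83 ± 0.081, so reads could be split between the 2 genes. HSPA2, a testis-enriched HSP70, rose by 0.54 ± 0.072 (adjusted p = 2.8e-09, edgeR).

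**Figure D5:**
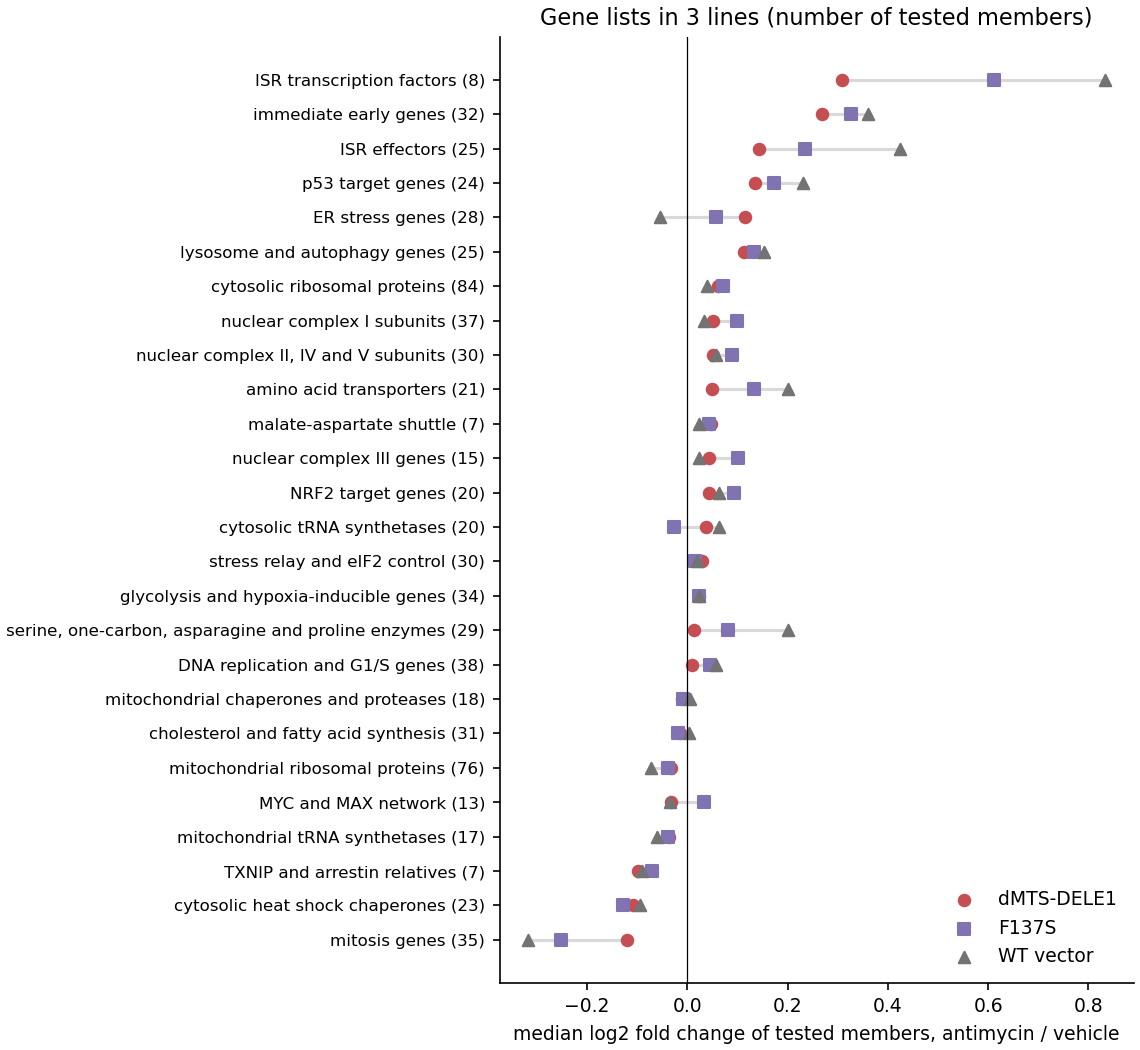
Median log2 fold change (antimycin over vehicle) of the tested members of 26 gene lists, in dMTS-DELE1 (red circles), F137S (purple squares) and WT-vector cells (grey triangles), ordered by the dMTS-DELE1 median. The lists of ISR transcription factors, ISR effectors and mitosis genes have the red point nearest zero, and ER stress genes have it farthest to the right.

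TXNIP, a glucose-responsive inhibitor of thioredoxin, fell more in dMTS-DELE1 cells than in F137S and WT-vector cells. It was at 59.0, 56.3, 57.6 and 55.9 CPM in vehicle and at 23.5, 25.0, 24.0 and 21.8 CPM in antimycin, without overlap. TXNIP was above its level in F137S cells by a log2 difference of 0.80 in vehicle and 0.38 in antimycin. These comparisons share their libraries with the difference of response. TXNIP fell by 1.28 ± 0.050 (adjusted p = 2.4e-35, edgeR), against -0.86 ± 0.052 in F137S cells, a difference of -0.41 ± 0.072 (adjusted p = 1.5e-05, edgeR), and against -0.62 in WT-vector cells, with an adjusted p of 1.6e-11 for that difference. ARRDC4, a related arrestin with the same glucose-sensing control, was at 49.6, 47.0, 49.3 and 50.1 CPM in vehicle and at 29, 28.6, 26.6 and 27.6 CPM in antimycin. ARRDC4 fell by 0.81 ± 0.041 (adjusted p = 2.4e-28, edgeR), and its difference from F137S cells, 0.027 ± 0.059, did not pass the test (adjusted p = 0.84, edgeR). ARRDC3, another member of the family, rose by 0.59 ± 0.045, 0.39 less than in F137S cells (adjusted p = 4.6e-06 for the difference, edgeR). Among 34 glycolysis and hypoxia-inducible genes 11 rose and 8 fell, with the glucose transporter SLC2A3 at 0.47 ± 0.066.

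Counts for nuclear genes of the respiratory complexes stand beside the 17.6% of all tested genes that rose and the 17.3% that fell. Of 37 nuclear complex I subunits 7 rose and 1 fell, of 15 complex III genes 3 rose and 0 fell, and of 30 subunits of complexes II, IV and V 8 rose and 2 fell. In F137S cells 17, 8 and 19 members of these lists rose, where 26.3% of all genes did, and in WT-vector cells 8, 4 and 12, where 25.5% did. By the test of the difference against F137S cells 0, 1 and 1 members were more negative and 0 more positive. NDUFA6 had the highest fitted value of the complex I list, 2.21 ± 0.52, which rested on 1 library: without the second antimycin library it was 0.37 with an adjusted p of 0.22. Of 84 cytosolic ribosomal protein genes 32 rose and 4 fell, with a median of 0.061, and of 76 mitochondrial ones 7 rose, among them MRPL10 at 0.21 ± 0.035, and 20 fell. Of 25 lysosome and autophagy genes 12 rose and 2 fell. FLCN, a regulator of lysosomal mTORC1 and TFE3 signalling, rose by 0.49 ± 0.039 and WIPI1, of autophagosome formation, by 0.63 ± 0.12. FNIP1, the partner of FLCN, had a log2 fold change of 0.010 ± 0.038 (adjusted p = 0.87, edgeR), while it fell by 0.45 ± 0.039 in F137S cells, a difference of 0.46 ± 0.054 (adjusted p = 1.1e-09, edgeR). Of 20 NRF2 target genes 7 rose and 4 fell, among them the heme oxygenase HMOX1 at -0.67 ± 0.040. Of 31 genes of cholesterol and fatty acid synthesis 9 rose, among them STARD4 at 0.39 ± 0.046, and 10 fell, among them HMGCS1 at -0.25 ± 0.027.

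Some of the larger changes outside these lists were in genes of low level. TLCD1, a gene of membrane lipid composition, was at 5.93, 6.96, 5.63 and 5.6 CPM in vehicle and at 14.4, 12.5, 12.5 and 12.4 CPM in antimycin, without overlap. TLCD1 rose by 1.11 ± 0.079 (adjusted p = 2.6e-20, edgeR), 0.49 less than in F137S cells (adjusted p = 0.00088 for the difference, edgeR). Other genes that rose were DUSP8, a MAP kinase phosphatase, at 1.30 ± 0.33, ZNNT1 at 1.09 ± 0.13, ZNF488 at 0.93 ± 0.096, the nitric oxide synthase NOS2 at 0.92 ± 0.16 and the angiotensin receptor AGTR1 at 0.95 ± 0.15. CYP27B1, which activates vitamin D, fell by 1.07 ± 0.075 (adjusted p = 1.6e-20, edgeR). FAM189B fell by 1.29 ± 0.41 (adjusted p = 0.014, edgeR), and by 1.1 with an adjusted p of 0.055 without the second vehicle library.

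Several small nucleolar RNA (snoRNA) genes fell. SNORA73B was at 3.85, 4.33, 3.90 and 4.24 CPM in vehicle and at 1.43, 1.19, 1.18 and 1.15 CPM in antimycin, without overlap, and fell by 1.71 ± 0.15 (adjusted p = 2.8e-16, edgeR). Its log2 fold change was -1.72 in F137S and -1.87 in WT-vector cells. SNORA73A fell by 1.04 ± 0.12, SNORD78 by 1.28 ± 0.16, SNORD101 by 1.13 ± 0.17 and SNORD44 by 1.1 ± 0.13. The libraries were made from poly(A) RNA, and in GENCODE v29 SNORA73A and SNORA73B lie within RCC1 and SNHG3, and SNORD101 within RPS12, so reads of the host genes could be counted in them.

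Some genes fell in F137S cells and not in dMTS-DELE1 cells. ZBTB20, a zinc finger repressor, was at 7.06, 5.95, 5.78 and 5.79 CPM in vehicle and at 7.36, 7.87, 7.98 and 7.89 CPM in antimycin in dMTS-DELE1 cells, and went from a mean of 3.75 to 2.53 CPM in F137S cells. The difference was 0.91 ± 0.18 (adjusted p = 0.00018, edgeR), while the rise of 0.34 ± 0.12 in dMTS-DELE1 cells alone (adjusted p = 0.022, edgeR) was not called when any of 5 single libraries was left out, for example 0.31 with an adjusted p of 0.063 without the third vehicle library. SOX6, a developmental transcription factor, had a log2 fold change of -0.12 ± 0.12 against -1.16 ± 0.13 in F137S cells, a difference of 1.04 ± 0.17 (adjusted p = 6.4e-06, edgeR). ANKRD31 had -0.28 ± 0.18 against -1.70 ± 0.23, a difference of 1.42 ± 0.29 (adjusted p = 0.00026, edgeR). MALAT1, a nuclear long noncoding RNA, was at 3.40, 3.83, 2.92 and 3.39 CPM in vehicle and at 3.18, 2.89, 3.58 and 4.83 CPM in antimycin, with overlap. Its log2 fold change of 0.097 ± 0.15 did not pass the test (adjusted p = 0.66, edgeR), against 1.04 ± 0.15 in F137S cells, a difference of -0.94 ± 0.21 (adjusted p = 0.00067, edgeR). In GENCODE v29 MALAT1 overlaps RF01684 and RF01871 on the same strand and AP000769.2 on the other. Reads of MALAT1 may therefore not all be counted, which was not tested.

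Some named genes overlap others on the opposite strand in GENCODE v29, among them DDIT3 with MARS and MBD6, and DNAJB9 with PNPLA8 and THAP5. Further such pairs are TLCD1 with NEK8 and RPL23A, PCK2 with NRL, and SLC6A9 with CCDC24. Whether the counting used strand is not stated in the labels, so reads of these partners cannot be told apart. Other gene spans overlap on the same strand, among them CYP27B1 with METTL1 and CENPA with SLC35F6. Strand use would not separate reads where these overlap.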

How the data were processed

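The deposited table holds raw counts per gene symbol and library, per the file headers without normalization. The labels' protocols describe TRIzol extraction, poly(A) selection and random hexamer priming, and the submitters' processing notes name HISAT2 2.1.0, featureCounts 2.0.6 and hg38. Settings, annotation and strand use are not given there. Of 28278 symbols, 16739 passed filterByExpr. All 40 libraries were fitted with 1 coefficient per group by edgeR 4.0.16 (TMM scaling, robust quasi-likelihood) in R 4.3.3, and each comparison, including differences of response, was a contrast with Benjamini-Hochberg adjustment over all tested genes. CPM values use TMM-scaled totals. The common biological coefficient of variation was 0.0509. Between 55.1% and 58.5% of counts from 1 to 20 were even in the dMTS-DELE1 libraries, and the cause was not tested, so counts were also halved as an alternative. Other alternatives were DESeq2 1.42.0, its size factors, no filter, compared groups alone, a replicate block, a 2-fold limit, each library left out, and a fit that omits the knockout lines labelled SLC25A12-WT, whose SLC25A12 counts resemble WT-vector cells. The code was tested on simulated data. Named genes were taken from the 12 largest called responses each way without overlap of libraries, the 10 largest called differences each way against F137S and 6 against WT-vector cells (mean log2 CPM of at least 1), up to 4 members of each list by response and 3 by difference, and a set of relay and ISR genes, and the text names fewer. STC2, XPOT, PMAIP1 and CTH lie outside this rule and were named after their values were seen. The compared libraries and the lists were chosen with earlier results of these data known. Some genes that this rule selects are not reported here.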

Additional observations from a re-analysis of the deposited data

Results flagged for a closer look

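In 3 of 50 groups of 4 libraries 1 library stood apart from the others, where chance gives about 1 in 20 groups. These were SNORA73B in the first antimycin library (1.43 CPM), TLCD1 in the first antimycin library (14.4 CPM) and ZBTB20 in the first vehicle library (7.06 CPM).

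The antimycin response of 42 named genes differed between dMTS-DELE1 and F137S cells by the test of the difference (edgeR, adjusted p under 0.05). More negative in dMTS-DELE1 cells on the log2 scale were GDF15 by -1.43, CHAC1 by -1.30, MALAT1 by -0.94, ULBP1 by -0.70, SLC6A9 by -0.67, SESN2 by -0.60, TLCD1 by -0.49, TXNIP by -0.41, ARRDC3 by -0.39, PCK2 by -0.38, HSPA2 by -0.33, CEBPB by -0.29, CTH by -0.29, ATF3 by -0.27, DDIT3 by -0.27, VEGFA by -0.25, DDIT4 by -0.21, GPT2 by -0.21, E2F1 by -0.18, JUN by -0.14, STC2 by -0.13, PSAT1 by -0.12 and AARS1 by -0.11. More positive were ANKRD31 by 1.42, SOX6 by 1.04, ZBTB20 by 0.91, DNAJB9 by 0.58, MYC by 0.48, FNIP1 by 0.46, CYP27B1 by 0.36, CENPA by 0.31, SLC7A11 by 0.29, TTK by 0.29, KIF23 by 0.28, PMAIP1 by 0.25, RFC3 by 0.25, AURKA by 0.23, SLC25A12 by 0.16, HERPUD1 by 0.16, CCNB1 by 0.13, XPOT by 0.12 and WARS1 by 0.10.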

How the results depend on the processing

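Counts of called genes stayed within 1.5 times of the main count in each of the 7 comparisons and 4 list counts under DESeq2 size factors, the DESeq2 Wald test, no filter, the compared groups alone, halved counts, the replicate block and the fit that omits the knockout lines labelled SLC25A12-WT. With a 2-fold limit the counts moved by construction: 171 for the dMTS-DELE1 response, 469 for F137S, 595 for WT vector, 36 and 102 for the differences against F137S and WT vector, 376 and 494 for dMTS-DELE1 against F137S cells in vehicle and in antimycin, 0 for ISR genes higher and mitosis genes lower in dMTS-DELE1 cells, 2 for ISR genes with a more negative response than F137S (CHAC1 and GDF15) and 0 for mitosis genes with a more positive one. With the replicate block the dMTS-DELE1 response called 5803 genes and the difference against F137S cells 1974, and no gene named here changed its call. The same-numbered libraries share only a number: their residuals in dMTS-DELE1 cells correlated at 0.0897, 0.0195, 0.101 and -0.0185. Leaving out 1 library gave 5286 to 5525 calls for the dMTS-DELE1 response and 1489 to 2319 for the difference against F137S cells, 21 to 23 ISR genes higher and 22 to 25 mitosis genes lower. The share of called differences that were more positive was 69.0% against F137S cells with 59.9% for the compared groups alone, 78.1% without a filter and a lowest value of 53.8% with 1 library left out. Against WT-vector cells it was 64.8%, with 53.7% for the compared groups alone and a lowest value of 50.3% with 1 library left out. Of 94 single-gene responses examined 90 kept their call under the alternatives on the log2 scale other than the 2-fold limit, and the others were NUPR1, NDUFA6, FAM189B and ZBTB20. NUPR1 was called with the compared groups alone (edgeR, adjusted p = 0.0051) and with halved counts (0.044). Of 42 named differences against F137S cells 35 kept theirs under the alternatives on the log2 scale other than the 2-fold limit, and the others were JUN, CEBPB, WARS1, CYP27B1, DDIT3, HSPA2 and GDF15, whose highest adjusted p with 1 library left out was 0.089, 0.17, 0.14, 0.08, 0.085, 0.065 and 0.061 (edgeR). As a difference in CPM between lines, an alternative chosen after seeing the data, the sign reversed for ATF3 (48.3 CPM), DDIT3 (6.43), CTH (5.6), JUN (3.01), CEBPB (1.15) and GDF15 (0.396). Among these only ATF3 and DDIT3 lay beyond 2 standard errors of 0. The standard errors of CTH, JUN, CEBPB and GDF15 were 2.95, 9.53, 1.85 and 0.645 CPM. In 7 others the difference kept its sign within 2 standard errors of 0: CHAC1 (-0.891), DDIT4 (-3.06), AARS1 (-7.79), SLC7A11 (6.94), CYP27B1 (0.557), ANKRD31 (0.742) and VEGFA (-3.22), and 29 of the 42 kept sign and size beyond that. Genes such as FGF21 and NOS2 near 1 to 4 CPM have wide errors, so small changes in them were not detectable at this depth.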
